A study of Mus musculus with 2 samples.

Results

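The cytosolic ribosomal protein genes described here are the 87 of 55450 annotated genes whose symbols begin with Rpl or Rps and follow the naming of a cytosolic ribosomal protein. They comprise 54 genes of the large subunit and 33 of the small subunit. Of these, 83 are annotated as protein-coding and 4 as pseudogenes that carry a gene-like symbol (Rps4l, Rps12l1, Rpl32l and Rpl6l). A symbol ending in l or l1 marks 11 members as paralogues or copies of another member, and the other 76 are the main genes. The symbol rule does not take Rps3a1, Fau and Rack1, which also encode ribosomal proteins, and their values are given beside the members.

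Each cytosolic ribosome carries about one copy of most of its proteins, so these genes are known for high and similar mRNA levels. Their mRNAs start with a pyrimidine tract, the 5′ terminal oligopyrimidine motif, through which growth signals acting by mTOR and Larp1 control translation of the group. In striated muscle Rpl3l, a paralogue of Rpl3, is known as a form of the protein that is restricted to heart and skeletal muscle. Ribosomal protein mRNAs have been copied back into the genome many times, which left numerous processed pseudogenes of nearly the same sequence.

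Total RNA was sequenced from the gastrocnemius, a mostly fast calf muscle, of 10-day-old male B6CASTF1/J mice, the first-generation offspring of a C57BL/6J by CAST/EiJ cross. The 2 libraries form 1 group, started from 300 ng RNA each, include ERCC spike-ins, and carry distinct animal numbers with one donor code in the labels. No treatment, genotype contrast or second time point exists, so the results are levels, differences between the libraries and differences between the deposited tables, without a test between groups. The fast-muscle markers Acta1, Ckm, Mylpf, Tnnt3, Myh4 and Pvalb summed to 78416 and 79245 TPM (a transcript level per length and library total) in replicates 1 and 2. The gene tables, in the column layout of RSEM, held 38874862 and 38160786 expected counts, and are the source of each value unless another is named. A second table of each library, in the column layout of kallisto, gives estimated counts and TPM of transcripts, summed here per gene. Whole muscle holds many cell types, so fewer cells of a type and less RNA per cell cannot be told apart.

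The members were among the most abundant messenger RNAs of the muscle. Their summed TPM of 25651 in replicate 1 and 25442 in replicate 2 was 5.81% ± 0.0724 (SD, n = 2) of the TPM of nuclear protein-coding genes. By expected counts, which are not divided by transcript length, the share was 1.55% ± 0.0284. The median member stood at 313 and 312 TPM, against a median of 1.41 and 1.31 TPM over all nuclear protein-coding genes. Of the 87 members, 70 ranked among the 500 highest nuclear protein-coding genes by mean TPM.

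Most members lay within 2-fold of the group's median, with a tail toward low levels. The lower and upper quartiles were 158 and 398 TPM in replicate 1 and 153 and 409 TPM in replicate 2, and 61 of 87 members lay within 2-fold of the median in both libraries. At a mean of 100 TPM or more stood 72 members, a further 10 lay between 10 and 100 TPM, and 5 lay under 10 TPM. These TPM values are estimates in which reads shared with near-identical copies had to be divided, which bears on the lowest of the main genes as described further on.

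**Figure D1:**
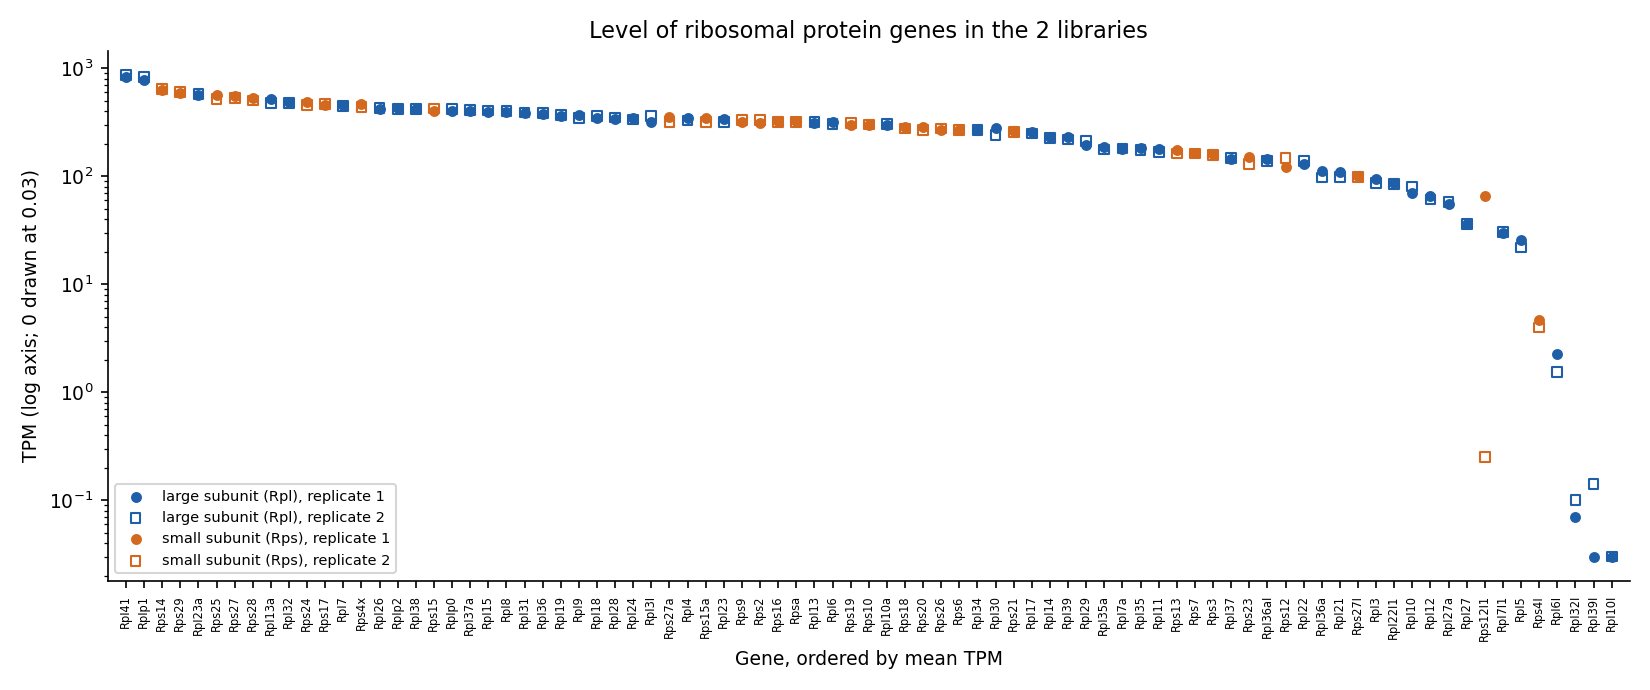
TPM of 83 of the 87 ribosomal protein genes (log axis), ordered by mean level, with filled circles for replicate 1 and open squares for replicate 2. Both libraries follow one curve from Rpl41 above 800 TPM down to Rpl5 near 24 TPM, ahead of the 5 members under 10 TPM, and Rps12l1 is the member whose 2 points lie far apart.

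In the large subunit the highest member was Rpl41, which encodes a very short basic peptide of the subunit interface, with 835 and 871 TPM (853 ± 25.6, SD, n = 2). Rplp1, an acidic protein of the stalk that recruits elongation factors, followed with 778 and 839 TPM. Also high were Rpl23a with 565 and 581 TPM and Rpl13a, also known for a role in translational silencing of inflammatory mRNAs, with 517 and 479 TPM. The other stalk genes were lower than Rplp1 in both libraries: Rplp2 had 429 and 419 TPM, and Rplp0, the base of the stalk, had 399 and 417 TPM. That order turned in the kallisto-layout table, where Rplp0 had 572 and 612 TPM and Rplp1 481 and 512 TPM once both tables were set to one total. The lowest large-subunit members at or above 100 TPM were Rpl21 with 110 and 98.3 TPM, Rpl36a with 111 and 97.5 TPM, Rpl22 with 130 and 138 TPM, Rpl36al with 144 and 138 TPM and Rpl37 with 144 and 147 TPM.

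In the small subunit Rps14 led with 627 and 644 TPM, followed by Rps29 with 593 and 601 TPM, Rps25 with 573 and 521 TPM, Rps27 with 550 and 527 TPM and Rps28 with 527 and 504 TPM. Rps25 is known for its part in translation from internal entry sites. The lowest members at or above 100 TPM were Rps12 with 123 and 148 TPM, Rps23, a protein of the decoding centre, with 152 and 131 TPM, Rps3 with 163 and 158 TPM, Rps7 with 165 and 163 TPM and Rps13 with 176 and 163 TPM. This order also depended on the table: in the scaled kallisto-layout values Rps24, with 615 and 601 TPM, stood beside Rps14 with 591 and 614 TPM, Rps29 had 313 and 229 TPM, Rps23 478 and 446 TPM and Rps12 378 and 345 TPM. Rps6, the substrate of the S6 kinases, had 269.7 TPM in each library. Rps19, whose loss causes Diamond-Blackfan anaemia, had 300 and 312 TPM, and Rpsa, which also goes by the name of the laminin receptor, had 324 and 317 TPM.

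Over members at 100 TPM or more, the 42 large-subunit genes had a median of 342 and 341 TPM and the 30 small-subunit genes 323 and 320 TPM. The log2 ratio of the medians, large over small, was 0.09 ± 0.01 (SD, n = 2). Its sign turned in the kallisto-layout table (-0.046), with means of log2 TPM (-0.073) and without the level filter (-0.14), so no order between the subunits is read from it.

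Rpl5 and Rpl11, which join the 5S ribosomal RNA in a particle known to bind Mdm2, stood at unlike levels. Rpl11 had 178 and 168 TPM and Rpl5 had 25.9 and 21.9 TPM, the lowest of the main genes. Of the counts of Rpl5 and its sequence copies together, 87.1% and 87.4% were given to the copies, so the level of Rpl5 depends in part on that division. The transcript to which its reads were given also differed. Rpl5-201, of 2045 bases, held 82.0% and 85.4% of the gene's TPM here. In the kallisto-layout table Rpl5-206, of 834 bases, held 86.3% and 88.2%. The part of transcript length in the level was not tested. Further subunit genes lay in the range of the members: Rps3a1 had 303 and 290 TPM, Fau 285 and 309 TPM and Rack1, a signalling scaffold on the small subunit, 228 and 231 TPM.

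Among the paralogue pairs, the muscle paralogue Rpl3l exceeded Rpl3. Rpl3l (chr17:24727820-24736143, plus strand, mm10) had 320 and 359 TPM from 13191 and 14823 expected counts, and Rpl3 (chr15:80077791-80091868, minus strand) had 95.4 and 86.7 TPM from 3342 and 3113 counts. Rpl3l was the higher of the 2 genes in both libraries. Rpl3l therefore held 77.0% and 80.6% of the TPM of the pair, 78.8% ± 2.50 (SD, n = 2), a level 3.36 and 4.15 times that of Rpl3. By counts the share was 79.8% in replicate 1 (95% exact binomial interval 79.2 to 80.4%) and 82.6% in replicate 2 (82.1 to 83.2%), where the intervals cover counting error only.

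The coding sequences of Rpl3 and Rpl3l are shown at their start because their differences let reads be told apart. They share 73.2% of 1224 aligned positions, and no stretch of 30 bases is common to both. The first 90 coding bases lie within chr15:80082496-80083326 and chr17:24727884-24728403 with introns left out, and capitals mark the 21 bases that differ.
Rpl3: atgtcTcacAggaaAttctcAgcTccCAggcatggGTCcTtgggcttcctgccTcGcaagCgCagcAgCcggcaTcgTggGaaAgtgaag
Rpl3l: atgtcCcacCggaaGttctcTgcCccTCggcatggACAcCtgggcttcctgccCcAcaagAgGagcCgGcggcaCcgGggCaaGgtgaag

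The posterior SD that the quantifier gives for read assignment was 0 for Rpl3l and 2.67% and 2.89% of the count for Rpl3. Rpl3l has no sequence copy among annotated transcripts, whereas 21 copies of Rpl3 held 2615 and 2624 counts. With these added to Rpl3, the share of Rpl3l was 68.9% and 72.1% of counts. In the kallisto-layout table it was 70.9% and 72.8% of TPM, so Rpl3l remained the larger of the pair under each of these counts.

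The other pairs held different balances. Rpl36al, with 144 and 138 TPM, exceeded Rpl36a, with 111 and 97.5 TPM, and held 57.6% ± 1.53 (SD, n = 2) of the pair, but in the kallisto-layout table its share was 44.2% and 49.3%. Rpl22l1 had 85.8 and 84.7 TPM beside Rpl22 with 130 and 138 TPM, a share of 38.9% ± 1.21. Rps27l, known as a target of p53, had 101 and 97.9 TPM beside Rps27 and held 15.6% ± 0.138, against 19.2% and 20.2% in the kallisto-layout table. Rpl7l1, a nucleolar relative of Rpl7, had 30.1 and 30.6 TPM against 456 and 449 TPM of Rpl7. It held 6.28% ± 0.122, and 5.78% and 5.42% in the kallisto-layout table.

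Rpl36a (chrX:134585654-134588062) and Rpl36al (chr12:69182731-69184083) are printed because Rpl36al was the only other paralogue above its main gene by TPM in the RSEM-layout table, with copies left out. Their coding sequences share 87.7% of 318 positions and no stretch of 30 bases. The first 90 coding bases follow, from chrX:134585717-134586164 on the plus strand and chr12:69183047-69183136 on the minus strand, with the 14 differing bases in capitals.
Rpl36a: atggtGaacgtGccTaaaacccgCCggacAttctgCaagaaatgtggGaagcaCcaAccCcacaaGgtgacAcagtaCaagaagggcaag
Rpl36al: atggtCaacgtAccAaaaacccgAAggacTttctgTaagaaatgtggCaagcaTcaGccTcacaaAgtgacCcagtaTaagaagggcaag

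The remaining paralogues were low in both libraries, except Rps12l1, which is described with the differences between the libraries. Rps4l had 4.69 and 3.97 TPM, 0.952% ± 0.0684 (SD, n = 2) of its pair with Rps4x. Rpl10l, known from testis, had 0 counts in both libraries, which allows up to 0.10 TPM in each at 3 counts. Rpl39l, also known from testis, had 0 and 2 counts, and Rpl32l had 0.69 and 1 expected counts. Rpl6l had 56.5 and 38.3 counts, or 2.26 and 1.53 TPM, with a posterior SD of 15.3% of the count in replicate 1.

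**Figure D2:**
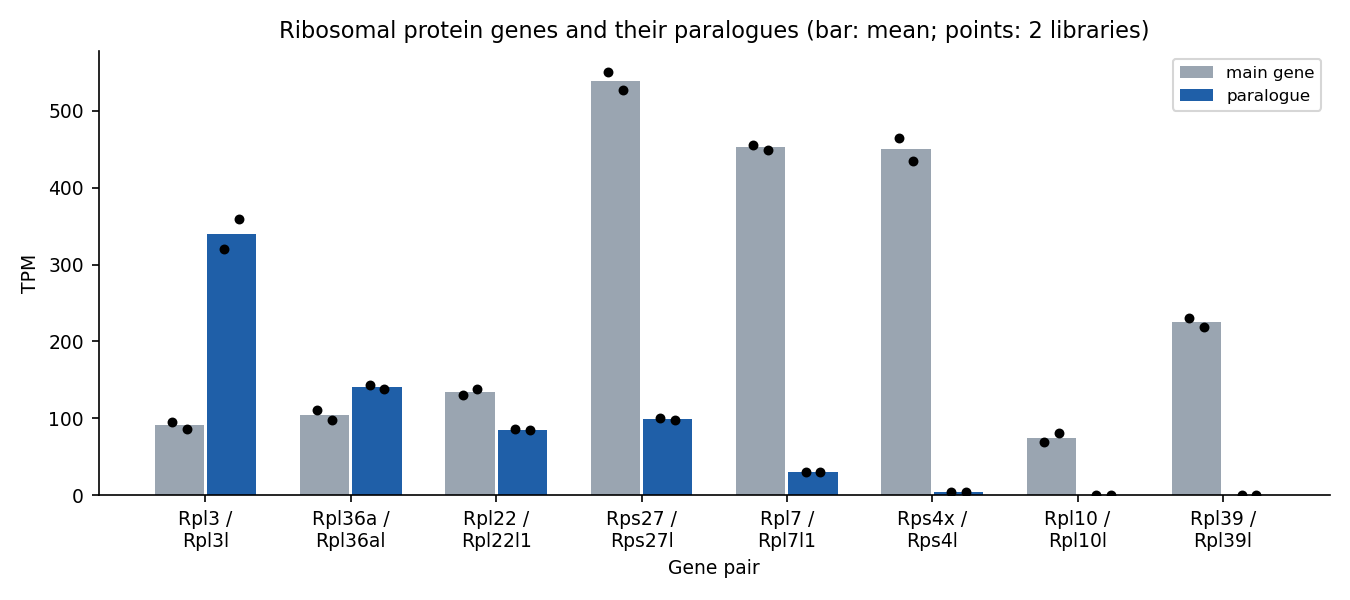
TPM of 8 ribosomal protein genes (grey) and their paralogues (blue), with bars for the mean and points for the 2 libraries. The Rpl3l bar stands above that of Rpl3, Rpl36al lies slightly above Rpl36a, and Rpl10l and Rpl39l lie at 0 or close to it.

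Members differed widely in how many near-identical copies the annotation holds. A search of the members' coding sequences against all annotated transcripts found 984 other genes with at least 90% identity over at least 80% of the coding sequence. They comprised 932 processed pseudogenes, 25 transcribed processed pseudogenes, 21 genes annotated as protein-coding and 6 of other kinds. At least 1 copy existed for 78 members, with a median of 7 copies per member and the highest numbers at Rpl21 (77), Rpl7a (75) and Rpl29 (59). Rpl8 and Rps3 were among the main genes with none.

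In the RSEM-layout table the copies held 122516 and 122108 expected counts beside 452220 and 450315 in the members, 21.3% ± 0.0106 (SD, n = 2) of the sum. Counts were concentrated, since 526 copies had 0 counts in both libraries and 85 had a mean of 100 counts or more. In the kallisto-layout table the copies held 54199 and 50172 estimated counts, 10.1% ± 0.407 of the sum. Pseudogenes recognised by symbol alone, 299 genes named after a member, held 10.5% ± 0.0657 of counts in the first table and 3.63% ± 0.139 in the second. Whether any copy is itself transcribed in this muscle was not tested.

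The copy with the most counts was Gm15500 (chr7:114705217-114706235), whose sequence matches all 891 coding bases of Rpl5 and which held 9896 and 8735 counts in the RSEM-layout table and 6831 and 6117 in the other. Rpl10-ps3 (chr9:50344201-50344968), annotated as protein-coding, matches all 642 coding bases of Rpl10 and held 5598 and 4993 counts in the first table and 0 in the second. Rps12-ps3 matches all 396 coding bases of Rps12 and held 3630 and 3833 counts against 0, and Rpl27-ps3 matches all 408 of Rpl27 with 1883 and 1834 counts against 0. The first 60 coding bases of Rpl10, spliced from chrX:74271002-74271696 on the plus strand, and the matching run of its copy at chr9:50344882-50344941 on the minus strand are shown in lower case throughout, since no base differs.
Rpl10: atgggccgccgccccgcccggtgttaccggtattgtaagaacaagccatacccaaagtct
Rpl10-ps3: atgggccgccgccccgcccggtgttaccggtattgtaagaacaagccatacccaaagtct

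Of the members, 12 had over 50% of the joint counts of member and copies in the copies in both libraries of the RSEM-layout table, against 1 member, Rpl5, in the other. Rpl27 had 88.0% and 87.3% of its joint counts in copies in the first table and 0.0464% and 0.0235% in the second. Rpl10 had 77.4% and 72.6% against 0.128% and 0.0909%, and Rps23 had 69.1% and 71.4% against 0.105% and 0.236%. The reverse held for Rpl19, with 4.42% and 3.03% in copies in the first table and 51.8% and 43.7% in the second.

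**Figure D3:**
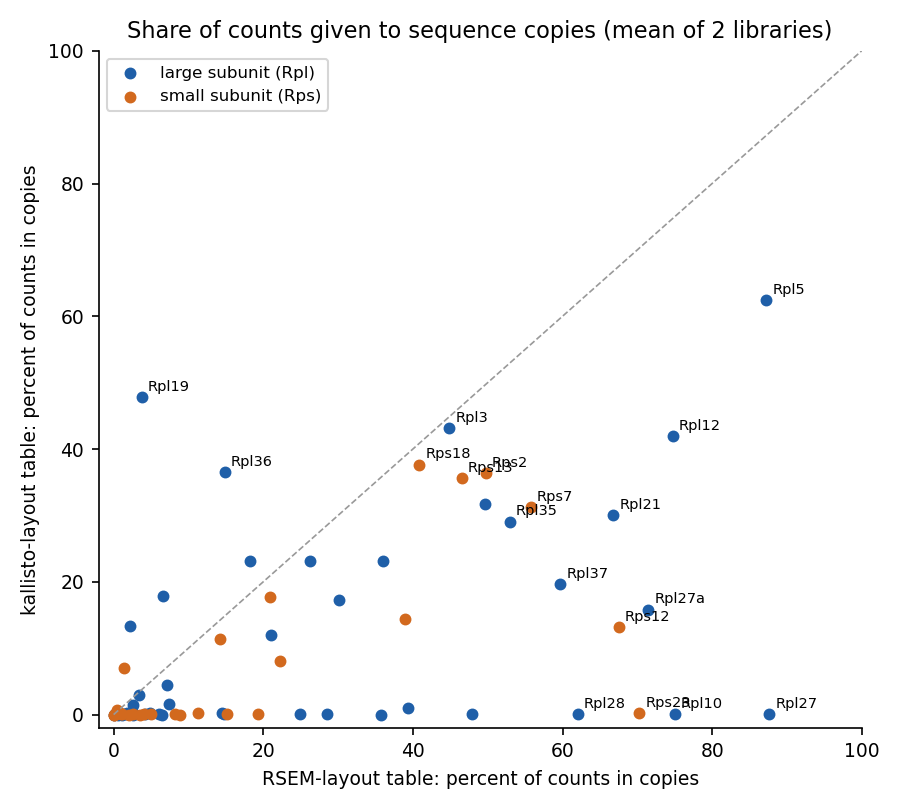
Share of the joint counts of a member and its sequence copies that was given to the copies, as the mean of the 2 libraries, in the RSEM-layout table (x axis) and the kallisto-layout table (y axis). Rpl27, Rpl10, Rps23 and Rpl28 lie far to the right near 0 on the y axis, Rpl5 is high on both axes, and Rpl19 and Rpl36 lie above the dashed line of equal shares.

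The tables placed many members at different levels. After both were set to the same total over shared nuclear protein-coding genes, 24 of the 84 members whose expected counts averaged at least 20 were over 0.5 higher on the log2 TPM scale in the kallisto-layout table in both libraries, or 28.6%, against 2.29% of 13119 nuclear protein-coding genes. Over 0.5 lower in both were 10 of 84 members, or 11.9%, against 4.25% of those genes. In the protein-coding members alone the counts were 24 and 8 of 81.

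The members furthest higher in the kallisto-layout table were low in the RSEM-layout table. Rpl27 (chr11:101442298-101445529) had 36.1 and 36.1 TPM in the first and 309 and 302 TPM in the second after scaling, a log2 difference of 3.09 and 3.06. Rpl27a differed by 2.62 and 2.67, Rpl5 by 2.58 and 2.67, Rpl10 by 2.44 and 2.19 and Rps23 by 1.65 and 1.77. In the scaled kallisto-layout values the median of the group was 340 TPM, Rpl5 had 155 and 140 TPM, and the lowest main gene was Rps3, with 94.05 and 89.99 TPM.

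Counts, which are not divided by length, differed less than TPM for some of these genes before copies were added. By counts Rpl27a was 1.43 and 1.49 higher and Rpl5 1.46 and 1.49. Rps20, which was 0.77 and 0.79 higher by TPM, stood at -0.17 and -0.19. Rps23 hardly changed, at 1.67 and 1.77, and Rpl28 rose from 0.68 and 0.72 to 1.22 and 1.28. Over 0.5 higher in the kallisto-layout counts were 13 members, with a median difference of 1.06. With the counts of the copies added to each member, none was. For Rpl27 the mean log2 count difference was -0.03 with copies, for Rpl10 -0.01, for Rps23 -0.03 and for Rpl5 -0.08. Among these 13 the exception was Rps12, at -0.63 with copies.

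The members lower in the kallisto-layout table did not come together in this way. Over 0.5 lower in counts were 10 protein-coding members, among them Rplp1, Rps29, Rpl23a, Rps28, Rps15, Rpl36, Rpl19, Rpl13 and Rps21, with a median of -1.29 alone and -0.96 with copies. Rpl36 (chr17:56613416-56614243) had 3451 and 3579 counts in the first table and 507 and 458 in the second. Rps29 had 5597 and 5677 counts against 1308 and 964. The leading transcripts of these 10 genes had a median length of 499.5 bases (382 to 780), against 681 bases (312 to 3706) for the other protein-coding members, and the part of length in the difference was not tested.

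**Figure D4:**
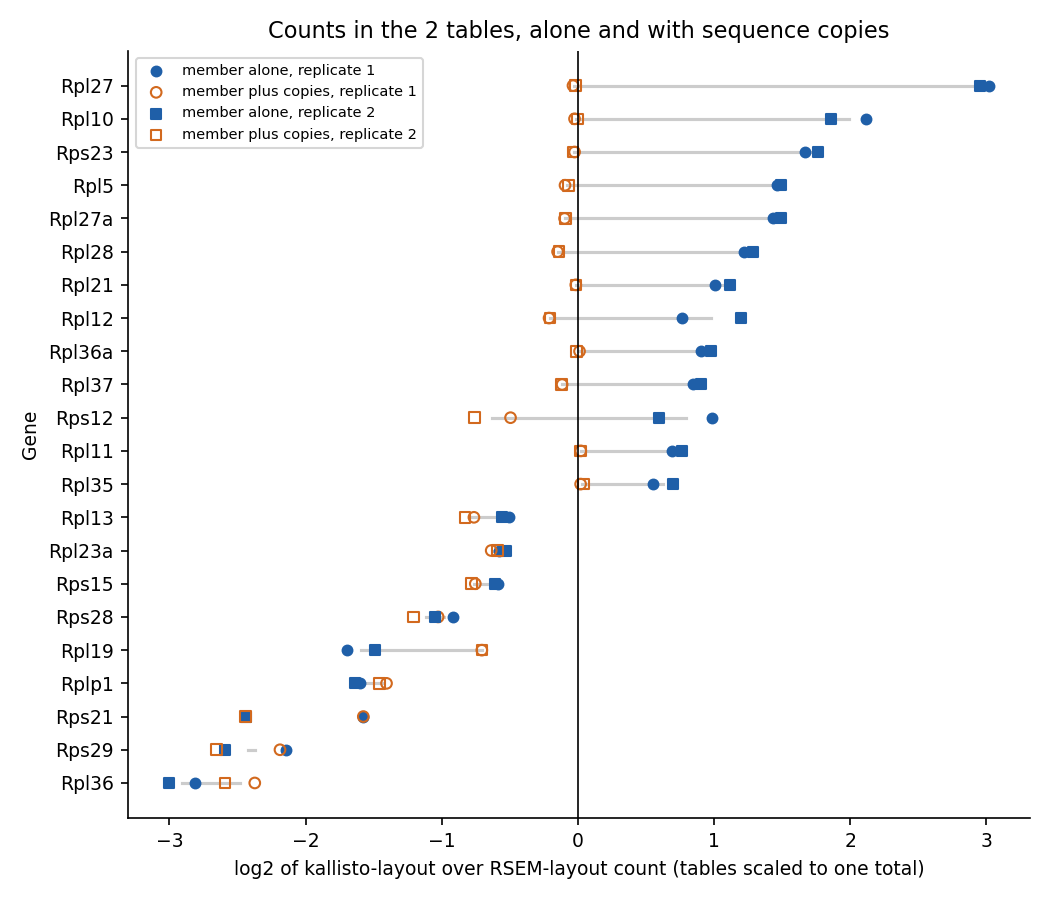
Log2 of the kallisto-layout over the RSEM-layout count, after scaling to one total, for 22 of the 23 protein-coding members over 0.5 apart in both libraries, with the member alone in blue and with its copies added in open orange. For the 13 genes at the right the orange points lie near 0 except for Rps12, while for the genes at the left they stay below 0; the pseudogenes Rps12l1 and Rpl6l, which are also apart, are not drawn.

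The member that differed most between the libraries was Rps12l1 (chr7:56014016-56014414), a single-exon processed pseudogene whose sequence matches all 396 coding bases of Rps12. It had 633 expected counts and 65.1 TPM in replicate 1 and 2.42 counts and 0.25 TPM in replicate 2. In the kallisto-layout table it was listed at 0 in both libraries. Its posterior SD was 22.4% of the count in replicate 1 and 89.3% of the posterior mean count in replicate 2. The quantifier's credibility bounds of its TPM were 30.2 to 80.8 in replicate 1 and 0.0002 to 32.5 in replicate 2, which overlap. By posterior mean TPM it held 28.9% and 6.97% of its pair with Rps12. Rps12 itself had 1944 and 2279 counts, so the values of the pair moved in opposite directions between the libraries.

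Apart from Rps12l1, the libraries differed little. The log2 ratio of replicate 2 over replicate 1, after scaling with TMM, had a median of 0.07 over the same 84 members (quartiles 0.0021 and 0.10), against 0.0079 over all 14662 genes compared (quartiles -0.13 and 0.13). Higher in replicate 2 were 64 of 84 members, or 76.2%, against 51.8% of all genes. Over the 13119 nuclear protein-coding genes compared, the median was 0.014 and 53.3% were higher. The medians were 0.08 for the 51 large-subunit members, of which 41 were higher, and 0.06 for the 33 small-subunit members, of which 23 were higher. The shift is small, and the size of the members' median depends on the scaling (0.027 with library totals, 0.039 with spike-in totals). A change of scaling moves every gene by the same amount, so the distance to the median of all genes stays the same. The 1 library on each side gives no test of the shift.

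Few members were apart between the libraries. Over 1.2-fold higher in replicate 2 were 2 of 84 members, Rps12 and Rpl10, against 10.9% of all genes, and over 1.2-fold lower were 2, Rps12l1 and Rpl6l, against 13.6%. The SD of the ratio over the members was 0.105 without Rps12l1 and 0.851 with it. Over 2721 other protein-coding genes with mean counts between 1386 and 9669, the range of the middle of the members, it was 0.187, and 9.56% of those genes were over 1.2-fold apart in either direction. The median ratio of those 2721 genes was 0.029, against 0.07 over the members.

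The largest ratios were those of Rps12 at 0.30 (95% counting interval 0.21 to 0.39), Rpl10 at 0.27 (0.18 to 0.37), Rpl3l at 0.24 (0.20 to 0.27), Rplp1 at 0.18 (0.14 to 0.22) and Rps7 at 0.16 (0.089 to 0.23). The intervals cover counting error only, not the division of reads among copies. The posterior SD was 9.78% and 5.70% of the count for Rps12 and 8.01% and 8.42% for Rpl10. For Rps12 and Rpl10 the kallisto-layout ratios were -0.07 and 0.04, and with copies added the ratios were 0.18 and -0.0031. With Rps12l1 also added, the ratio of Rps12 and its copies was 0.038. For Rpl3l the kallisto-layout ratio was 0.26, close to that of the first table. Besides Rps12l1, the smallest ratios among members averaging at least 100 counts were Rps4l at -0.18, Rpl5 at -0.14, Rps23 at -0.14 and Rpl30 at -0.13. In all, 70 of 84 members had the same sign of ratio in both tables. Both tables come from the same libraries and the share over all genes is not given here, so nothing particular to the members is read from this count.

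Markers of some other cell types also differed between the libraries. The summed level of the 6 erythroid markers was 857 and 1521 TPM, led by Hba-a1 with 412 and 719 TPM and Hbb-bs with 394 and 708 TPM. Of the 5 erythroid markers with enough counts, 4 were over 1.2-fold higher in replicate 2. The 4 fibroblast markers summed to 2441 and 2206 TPM and none was higher, the 5 proliferation markers summed to 59.6 and 49.8 TPM, and the 4 endothelial markers to 129 and 138 TPM. The macrophage and satellite-cell markers moved both ways, with 2 of 4 and 2 of 3 higher in replicate 2. The part of these cells in the ratios of the members was not tested.

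**Figure D5:**
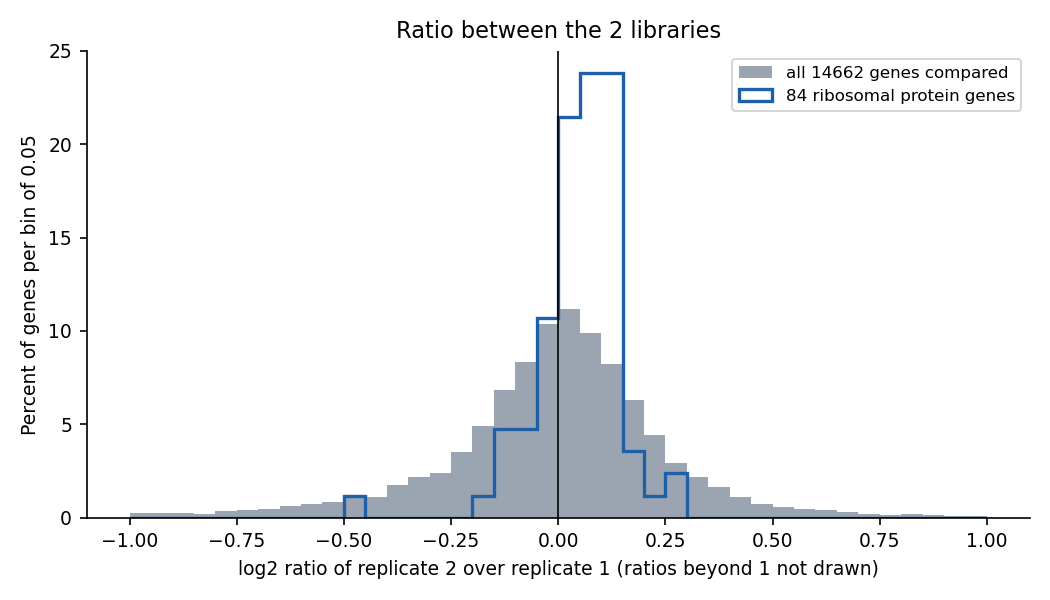
Distribution of the log2 ratio of replicate 2 over replicate 1 in bins of 0.05, as percent of genes, for all 14662 genes compared (grey) and the 84 ribosomal protein genes (blue line). Most members lie in the bins just above 0; Rps12l1 at -7.69 is beyond the axis.

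The annotation lists between 1 and 19 transcripts per member, with a median of 6, and the tables divided members among them differently. Over the 81 protein-coding members averaging at least 20 counts, the median share of TPM in protein-coding transcripts was 98.7% ± 0.0790 (SD, n = 2) in the RSEM-layout table and 91.8% ± 0.252 in the kallisto-layout table. Below 80% lay 24 members in the first table and 34 in the second, of which 18 were below in both. The same shares over other protein-coding genes are not given here, so these values are not read as particular to the members.

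Among the 8 members with the lowest shares in the first table were Rps16 (1.52% and 0.997%), Rps20 (2.11% and 2.02%), Rps26 (2.54% and 2.81%), Rpl35 (4.19% and 3.84%), Rpl37 (10.2% and 7.20%), Rpsa (11.1% and 14.8%) and Rps23 (13.0% and 13.7%), by the mean of the libraries. In the second table Rpsa had 62.8% and 63.1%, whereas Rps23 had 4.24% and 5.70%, Rps20 had 0.306% and 0.251% and Rpl37 0.114% and 0.0850%. Of Rps16, the retained-intron transcript Rps16-203 took 73.2% and 66.6% in the first table and 85.1% and 83.9% in the second. Of Rps20, 2 retained-intron transcripts together with a single protein-coding one of 3706 bases make up the annotation. Whether the reads given to these transcripts come from unspliced RNA was not tested.

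Rps24 (chr14:24487125-24496959), a Diamond-Blackfan gene known for tissue-dependent use of very short exons at its end, is shown by its coding ends. Transcripts Rps24-202, Rps24-205 and Rps24-210 encode 390, 393 and 399 bases without the stop codon. The last 30 coding bases follow, with capitals for those beyond the end of Rps24-202.
Rps24-202: gcgaaggccaatgttggtgctggcaaaaag
Rps24-205: aaggccaatgttggtgctggcaaaaagAAA
Rps24-210: aatgttggtgctggcaaaaagCCAAAGGAG

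In the RSEM-layout table Rps24-202 held 40.3% and 42.3% of the TPM of the gene, Rps24-205 29.3% and 31.3% and the noncoding Rps24-203 23.1% and 19.1%, while Rps24-210 held 0.95% and 0.91%. In the kallisto-layout table Rps24-205 held 32.8% and 33.3%, close to the first table, Rps24-210 held 0.685% and 0.665%, and Rps24-207, which shares the coding end of Rps24-202, held 53.7% and 48.8%. As a share of all TPM of the gene, noncoding transcripts included, Rps24-205 thus held between 29.3% and 33.3% in both tables and libraries and Rps24-210 below 1% in each.

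Start-site windows of 300 bases, from 250 before to 50 after the start, were matched from RefSeq (GRCm38.p6) for 64 members, with 76 windows. A run of at least 8 C or T bases on the gene's strand, within 15 bases of the start, was in 38.2% of the members' windows and in 12% of all 32851. The letters CCGGAAG, searched on both strands, were in 34.2% against 8.86%, AAGATGG in 15.8% against 6.34% and CACGTG in 10.5% against 7.15%. CAGCTG was in 5.26% against 16.3% and TATAAA in 10.5% against 13.6%. The windows are descriptions of letters, and no binding was measured.

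The bases around the start of 4 members with such a run and of Rpl3l and Rpl22, whose longest runs were 5 and 4 bases, are shown because the pyrimidine tract is the feature the group is known for. Each line covers 15 bases before and 15 after the start annotated in RefSeq, with the longest run of 8 or more in capitals. The Rpl22 window ends before the gene start in the annotation used for the counts (chr4:152325742), so the bases at that start are not shown. The windows are chr4:86857353-86857382 on the minus strand (Rps6), chr14:24490663-24490692 on the plus strand (Rps24), chr3:90213634-90213663 on the minus strand (Rps27), chr7:45128731-45128760 on the minus strand (Rpl13a), chr17:24727811-24727840 on the plus strand (Rpl3l) and chr4:152325711-152325740 on the plus strand (Rpl22).
Rps6: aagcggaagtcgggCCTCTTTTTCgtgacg
Rps24: cccgcgctggggTCCTTCCTTgcgcgttga
Rps27: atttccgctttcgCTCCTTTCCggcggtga
Rpl13a: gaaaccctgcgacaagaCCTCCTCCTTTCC
Rpl3l: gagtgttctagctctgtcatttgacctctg
Rpl22: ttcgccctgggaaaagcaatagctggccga

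Small nucleolar RNA genes, which lie in introns of many ribosomal protein genes, were annotated on the same strand within 29 members, 56 in all. Rpl4 held 5, Rpl13a held 4 and Rpl3 held 2, whereas Rpl3l held none.

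Genes of ribosome biogenesis and RNA polymerase I had medians far below that of the members, while some regulators and ribosome-bound factors lay within the members' range. All 25 ribosome biogenesis genes were at 1 TPM or more, with a median of 12.8 and 12.1 TPM. Npm1, a nucleolar chaperone, led with 83.7 and 82.0 TPM, followed by Ncl, nucleolin, with 60.9 and 56.7 TPM and Rrp1 with 34.9 and 36.3 TPM. The highest ratio there was that of Nop2, an rRNA methyltransferase, at 0.31 with 6.81 and 8.50 TPM. The list's median ratio was -0.0017, and 12 of 25 genes were higher in replicate 2, beside 51.8% of all genes compared.

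The 11 genes of RNA polymerase I and its factors had a median of 7.86 and 9.14 TPM. Polr1d had 49.2 and 44.2 TPM, Ubtf 23.8 and 22.9 TPM and Taf1d 21.4 and 16.4 TPM, and the ratios ran from -0.31 for Taf1d to 0.34 for Taf1a, with 1.89 and 2.25 TPM. Of the 13 regulators of oligopyrimidine mRNAs, Cnbp had 208 and 216 TPM, Pabpc1 156 and 135 TPM and Eif4e, the cap-binding protein, 55.0 and 51.2 TPM. Larp1 had 33.3 and 30.5 TPM and Mtor 11.2 and 13.4 TPM, and the ratios ran from -0.39 for Eif4ebp3, with 1.81 and 1.31 TPM, to 0.15 for Larp4.

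Among ribosome-bound factors, Naca had 220 and 203 TPM, its partner Btf3 132 and 130 TPM and Serbp1, which occupies the mRNA channel of idle ribosomes, 177 and 152 TPM. Of the 10 transcription factors, Zbtb16 had 25.6 and 27.6 TPM, Hcfc1 22.3 and 20.1 TPM, Max 18.4 and 14.7 TPM, Gabpa 12.5 and 12.4 TPM and Myc 7.32 and 6.41 TPM. Over these 5 lists, 34 of the 64 genes with enough counts were higher in replicate 2, beside 51.8% of all genes compared. Nothing particular to the lists is read from this count.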

How the data were processed

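Total RNA libraries of 2 animals were analysed as 1 group. Per the file headers and the accompanying notes, the authors deposited gene and transcript tables in RSEM layout, derived from alignments to the transcriptome (mm10, GENCODE M21), with expected counts, TPM over all features, the percent of each transcript, credibility bounds and a posterior SD (used as a score of read assignment). A transcript table in kallisto layout, deposited by the authors, holds estimated counts and TPM and was summed per gene. Aligner, versions and strand setting were not given in the sources used here; for that reason antisense overlaps are uncertain. CAST/EiJ reads were counted on mm10.

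Expected counts were rounded for TMM (edgeR 4.0.16) and size factors (DESeq2 1.42.0) in R 4.3.3. Ratios used a prior count of 0.5. Differences between tables added 0.1 TPM. Copies came from blastn 2.17.0 of the leading coding sequences, of which 79 of 83 were complete from the start codon. Members and gene lists were chosen with earlier results of these data known. The genes named are the paralogue pairs, the 5 highest and 5 lowest of each subunit at 100 TPM or more, every member under 10 TPM, the 5 most extreme by ratio and by table, the 8 lowest protein-coding shares, members with regulatory or stalk roles and the leading genes of other lists; the rest were named after their values were seen. Values of some genes that this rule takes are not reported here.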

Additional observations from a re-analysis of the deposited data

How the results depend on the processing

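No paired analysis was possible because the libraries form 1 group. Alternatives with sequence copies, with Rps12l1 added to these, without Rps12l1 and with scaled kallisto-layout TPM were chosen after seeing the data. The summed level of 5.81% was 6.63% by kallisto-layout TPM, 5.74% by posterior mean TPM, 1.55% by expected counts and 1.97% by counts with copies, and 5.76% to 5.86% with 1 library left out. The median of 312 TPM was 564 TPM in the kallisto-layout table, 340 after scaling, 306 by posterior mean TPM and 316 over members at 1 TPM or more, and 312 to 313 with 1 library left out. The large over small subunit ratio of 0.09 turned to -0.046 in the kallisto-layout table, -0.073 with means of log2 TPM and -0.14 without a filter; with 1 library left out it was 0.08 to 0.09. The Rpl3l share of 78.8% was 71.9% in the kallisto-layout table and 70.5% by counts with copies, and 77.0% to 80.6% with 1 library left out. The median log2 ratio of 0.07 was 0.027 with library totals, 0.039 with spike-in totals and 0.057 with copies; in place of the median, the mean was -0.046, and 0.047 without Rps12l1. It moved by under 0.01 with DESeq2 size factors, kallisto-layout counts, posterior mean counts, other filters or a prior count of 5. Apart between the tables were 34 members, 14 at a threshold of 1, 25 by counts and 12 by counts with copies, and 37 to 38 with 1 library left out. The protein-coding transcript share of 98.7% was 91.8% in the kallisto-layout table, and 98.6% to 98.7% with 1 library left out. The pseudogene share of 10.5% was 3.63% in the kallisto-layout table and 21.3% with copies chosen by sequence, and 10.4% to 10.5% with 1 library left out. The causes of these changes were not tested.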
